A study of Homo sapiens with 4 samples.

Results

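The miR-15/16 family was followed across 4 small RNA libraries of HCT116 cells, an established human colorectal carcinoma line. The members were taken by name from a fixed list: the 5p-strands miR-15a-5p, miR-15b-5p, miR-16-5p, miR-195-5p, miR-424-5p and miR-503-5p, and the 3p-strands miR-15b-3p, miR-16-1-3p, miR-16-2-3p and miR-424-3p. These are 10 of the 1644 miRNA names counted, and 164 of the 12689 end isoforms (reads of 1 miRNA that share both ends). The members held 1.70% of all miRNA reads with the empty vector and 2.59%, 2.64% and 3.85% with the wild-type, mutant 1 and mutant 2 plasmids.

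The study examined how mismatches and wobble base pairs in the stem of a pri-miRNA affect its cleavage by DROSHA, and used a co-transfected pri-mir-16-1 plasmid as the common reference for all other miRNAs. The control cells received empty pcDNA3, and their library is called the control. The wild-type cells received pcDNA3 plasmids with unchanged pri-miRNAs together with pri-mir-16-1, the mutant 1 cells received variants of those pri-miRNAs with pri-mir-16-1, and the mutant 2 cells received a variant of pri-mir-342 with pri-mir-16-1 and filler vector. Which of the last 2 mixtures is mutant 1 was taken from the order of the study's listing, and reads of the variants went the same way. A miR-30a variant had 516138 reads in mutant 1 and 29 in mutant 2, and a miR-142 variant had 13455 and 0. Of the miR-342 variants, 1 had 47789 reads in mutant 2 and 1 in mutant 1, and another had 3 and 31384. Pri-mir-16-1 is listed in the same amount in the 3 pri-miRNA mixtures and is absent from the empty vector mixture. The mutant 2 library also held 65088 reads of a miR-128-1 variant and 5966 reads of a let-7d variant that are not in its listed mixture. One library was made for each condition, so differences between conditions carry no test, and every interval is a 95% interval that covers counting error only. The reads carry no molecular identifiers. In bulk RNA, fewer cells with a miRNA and less of it per cell cannot be told apart. The libraries held 14544516 to 19834361 miRNA reads.

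MiRNAs are cut from hairpins in 2 steps. DROSHA releases the hairpin from the primary transcript, and DICER then removes the loop and leaves a duplex, of which the strand kept in an Argonaute protein guides silencing and the other is mostly degraded. Targets are recognised chiefly through the seed, bases 2 to 8 from the 5p-end, so miRNAs with 1 seed form a family with largely shared targets. The miR-15/16 family is best known for holding back cyclins and the anti-apoptotic protein BCL2, and the locus of miR-15a and miR-16-1 is often deleted in chronic lymphocytic leukaemia.

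The mature sequences show which members share a seed and which strands are specific to 1 locus. They are RefSeq entries on GRCh38.p14, with the seed in capitals. All 10 members were found in that table.

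hsa-miR-16-5p: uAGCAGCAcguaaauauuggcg
hsa-miR-15a-5p: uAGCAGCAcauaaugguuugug
hsa-miR-15b-5p: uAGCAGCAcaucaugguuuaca
hsa-miR-195-5p: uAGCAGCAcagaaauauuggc
hsa-miR-424-5p: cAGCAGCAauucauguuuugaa
hsa-miR-503-5p: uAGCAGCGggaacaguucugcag
hsa-miR-16-1-3p: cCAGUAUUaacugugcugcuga
hsa-miR-16-2-3p: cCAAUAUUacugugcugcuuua
hsa-miR-15b-3p: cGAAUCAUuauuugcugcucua
hsa-miR-424-3p: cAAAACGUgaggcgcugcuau

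Of the 2370 mature entries, 7 had the seed AGCAGCA: the 5p-strands of miR-15a, miR-15b, miR-16, miR-195 and miR-424, and miR-497-5p and miR-6838-5p, which are not members. MiR-503-5p had AGCAGCG and so differed in the last base of the seed. Compared position by position from the 5p-end, miR-195-5p differed from miR-16-5p at 2 of 21 positions, miR-15a-5p at 6 of 22, miR-15b-5p at 8 of 22 and miR-424-5p at 10 of 22.

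MiR-16-5p is the same annotated sequence at 2 loci, whose 3p-strands differ. MIR16-1 lies on the minus strand at chr13:50048973-50049061, in intron 6 of the noncoding gene DLEU2, which also holds MIR15A at chr13:50049119-50049201. MIR16-2 lies on the plus strand at chr3:160404745-160404825, in intron 5 of SMC4 (a condensin subunit), which also holds MIR15B at chr3:160404588-160404685. Both hairpins are given here with the 5p-strand and the 3p-strand in capitals.

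MIR16-1: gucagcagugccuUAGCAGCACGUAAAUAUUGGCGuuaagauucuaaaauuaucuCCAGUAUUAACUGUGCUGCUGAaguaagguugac
MIR16-2: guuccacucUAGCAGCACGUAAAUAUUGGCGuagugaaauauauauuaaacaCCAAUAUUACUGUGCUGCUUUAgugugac

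The cloned pri-mir-16-1 was 111 nt long and held the whole 89 nt MIR16-1 hairpin, with 13 bases before and 9 after it, and no miR-15a sequence. Plasmid-derived reads could therefore appear as miR-16-5p or miR-16-1-3p, and as no other member. The remaining members come from further loci: MIR195 at chr17:7017615-7017701 on the minus strand overlaps an exon of MIR497HG, MIR424 at chrX:134546614-134546711 on the minus strand partly overlaps an exon of MIR503HG, and MIR503 at chrX:134546328-134546398 on the minus strand lies in intron 1 of MIR503HG. These host genes are read from the same strand as the hairpin. MIR15B and MIR16-2 also lie within intron 3 of a protein-coding gene on the opposite strand (ENSG00000248710), and MIR195 within intron 1 of a noncoding gene on its own strand (ENSG00000267047).

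Levels were compared as reads per 1000000 reads of untransfected miRNAs (RPM), that is, of miRNAs that no plasmid of the series encodes. In the control, the family was nearly all miR-16-5p. Its level was 16944 RPM, against 863 RPM for miR-15b-5p and 385 RPM for miR-15a-5p. MiR-15b-3p stood at 148 RPM, miR-16-2-3p at 122 RPM, miR-424-5p at 28.8 RPM, miR-195-5p at 21.1 RPM and miR-424-3p at 9.04 RPM. The lowest were miR-503-5p at 3.06 RPM (2.20 to 4.16) and miR-16-1-3p at 2.17 RPM (1.45 to 3.11), whose intervals overlapped, whereas all other neighbours in this order were apart. Mature miRNAs are close in length, so these are levels per molecule sequenced, although adapters ligate to different miRNAs with different efficiency.

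The order of the 5p-strands was the same in the 4 libraries: miR-16-5p, miR-15b-5p, miR-15a-5p, miR-424-5p, miR-195-5p, miR-503-5p. The place of miR-16-1-3p was not. It stood at 24.8 RPM (22.04 to 27.7) beside miR-195-5p at 26.7 RPM (23.9 to 29.8) in wild type, at 28.5 RPM (25.8 to 31.5) beside miR-195-5p at 29.4 RPM (26.7 to 32.4) in mutant 1, and at 40.04 RPM (36.9 to 43.4) beside miR-424-5p at 46.0 RPM (42.6 to 49.5) in mutant 2. In each of these 3 pairs the intervals overlapped. The intervals of miR-424-3p and miR-503-5p overlapped as well in wild type, at 8.01 and 5.39 RPM, and in mutant 1, at 6.34 and 4.35 RPM.

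The first question was how far the 2 strands encoded by the plasmid stood above their endogenous level. MiR-16-5p had 16944 RPM in the control, 34753 in wild type, 35128 in mutant 1 and 41556 in mutant 2. All 3 libraries with the plasmid were above the control, by 2.05-fold (2.04 to 2.06), 2.07-fold (2.06 to 2.08) and 2.45-fold (2.44 to 2.46). MiR-16-1-3p had 29 reads in the control and then 303, 400 and 606 reads, which after scaling were 11.4-fold (7.79 to 17.3), 13.2-fold (9.02 to 19.9) and 18.5-fold (12.7 to 27.8) higher. Among the untransfected miRNAs and the miR-16 strands that reached a mean of 50 reads over both libraries, 473, 473 and 488 in number, it had the highest ratio in each library, and miR-16-5p ranked 8, 10 and 3. The other sequences that plasmids encode were left out of this order, and miR-16-1-3p reached the mean only through its reads in the plasmid libraries. Against the wild-type library, miR-16-5p was 1.011-fold (1.007 to 1.015) higher in mutant 1 and 1.20-fold (1.19 to 1.20) higher in mutant 2, and miR-16-1-3p was 1.15-fold (0.990 to 1.34) and 1.62-fold (1.41 to 1.86) higher.

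With the scaled empty vector reads subtracted, 51.2%, 51.8% and 59.2% of the miR-16-5p reads in wild type, mutant 1 and mutant 2 were in excess of the control. For miR-16-1-3p the excess made up 91.2%, 92.4% and 94.6% of the reads. The excess was thus a smaller part of miR-16-5p, by which the study scaled all other miRNAs, than of miR-16-1-3p.

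The 3p-strand of the endogenous MIR16-2 hairpin did not follow miR-16-5p. MiR-16-2-3p had 122 RPM in the control and 111, 114 and 106 RPM in wild type, mutant 1 and mutant 2. The plasmid does not encode it, and its ratios to the control were 0.908 (0.844 to 0.976), 0.932 (0.869 to 0.999) and 0.864 (0.806 to 0.926), although edgeR's TMM scaling put the mutant 1 value at 1.01. Reads of miR-16-5p per read of miR-16-2-3p were 139 (132 to 145) in the control and 313 (297 to 330), 308 (293 to 324) and 393 (374 to 413) in the 3 plasmid libraries, a comparison within each library that needs no scaling.

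Between the loci, the 3p-strands are the specific reads. In the control there were 0.0177 (0.0118 to 0.0255) reads of miR-16-1-3p for each read of miR-16-2-3p. The ratio was 0.223 (0.196 to 0.253) in wild type, 0.250 (0.224 to 0.279) in mutant 1 and 0.379 (0.345 to 0.416) in mutant 2. MiR-16-2-3p remained the more frequent of the 2 in all 4 libraries, by reads, even where the plasmid was present.

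Each miR-16-1-3p read went with very many miR-16-5p reads. There were 7818 (5444 to 11674) miR-16-5p reads per miR-16-1-3p read in the control (miR-16-5p can come from either locus). The ratio was 1404 (1255 to 1577) in wild type, 1232 (1117 to 1362) in mutant 1 and 1038 (958 to 1126) in mutant 2. When the scaled control reads were subtracted from both strands, the remaining reads stood at 789 (694 to 897), 690 (618 to 771) and 650 (596 to 709) reads of the 5p-strand per read of the 3p-strand. All 3 intervals overlapped. The order of the libraries depended on the scaling: with the control scaled by all miRNA reads the values were 577, 509 and 633, and mutant 2 was highest.

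**Figure D1:**
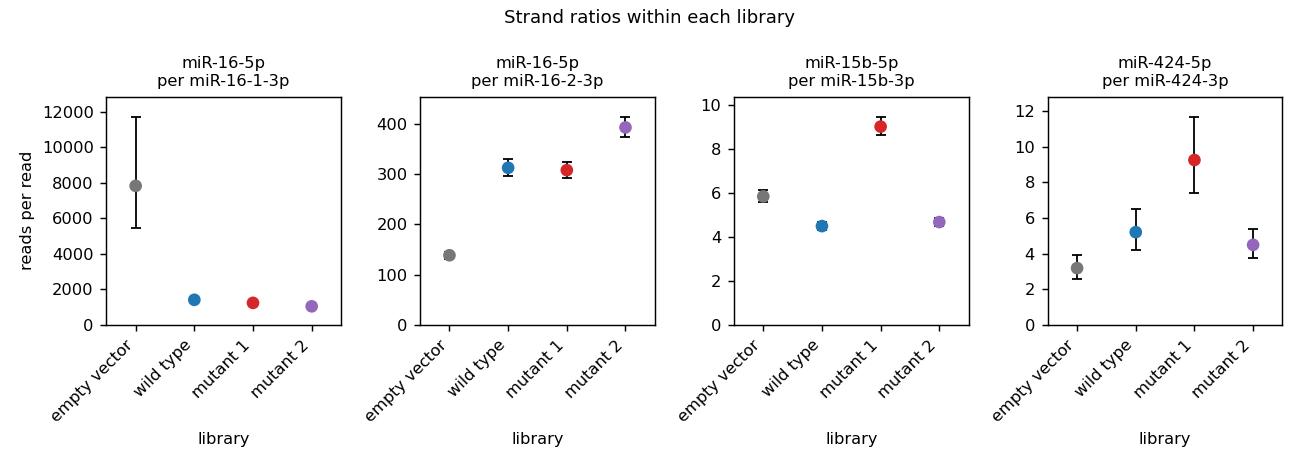
Reads of one strand per read of the other within each library, on linear axes that start at 0, with exact 95% intervals. MiR-16-5p per miR-16-1-3p is highest in the control (7818), miR-16-5p per miR-16-2-3p is lowest there (139), and the ratios of the miR-15b strands (9.01) and the miR-424 strands (9.26) are highest in mutant 1.

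The next question was whether the members that the plasmid does not encode differed from the control too. Comparisons were limited to miRNAs whose mean over both libraries reached 50 reads, and a ratio beyond 1.5-fold in either direction was counted. All 10 members passed this minimum, although miR-16-1-3p and miR-503-5p, with 29 and 41 reads in the control, passed only through their higher reads in the plasmid libraries. With so few control reads, passing the minimum fixes the direction of both. In RPM it also puts miR-16-1-3p past 1.5-fold in each plasmid library and miR-503-5p past it in wild type, so the minimum set these calls. In the wild-type library 4 of 10 members were past 1.5-fold, all higher, beside 11.2% of the 473 miRNAs compared. In the mutant 1 library 4 of 10 were past it, all higher, beside 20.9% of 473, and the mutant 2 library had 4 of 10, all higher, beside 9.63% of 488. With a minimum of 200 reads the wild-type count was 2, beside 7.21% of 305 miRNAs. With scaling by all miRNA reads it was 2, both encoded by the plasmid, beside 16.7% of 473. Of the 8 members outside the plasmid, 2 were past 1.5-fold in each library: miR-15b-3p and miR-503-5p in wild type, miR-15b-5p and miR-424-5p in mutant 1, and miR-15b-3p and miR-424-5p in mutant 2. Since the minimum set the call of miR-503-5p, the equal counts are no result, and in wild type only miR-15b-3p was free to fall on either side. With scaling by all miRNA reads, miR-15b-3p (1.17) and miR-503-5p (1.35) in wild type, miR-15b-5p (1.20) in mutant 1 and miR-15b-3p (1.47) in mutant 2 were no longer past it, and miR-424-3p (0.539) in mutant 1 was, in the other direction. DESeq2's scaling put miR-15b-3p at 1.41 in wild type and 1.49 in mutant 2, and edgeR's TMM put it at 1.42 in wild type. Division by miR-16-5p reads put all 6 ratios below 1, as it must for any ratio smaller than that of miR-16-5p in the same library. These comparisons share the empty vector library, so a low value there raises all 3 ratios.

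Among the 8 members outside the plasmid, the median log2 ratio to the control was 0.41 in wild type, 0.36 in mutant 1 and 0.36 in mutant 2. These 8 include miR-503-5p, whose direction the minimum fixed. The median over all miRNAs compared was 0.09, -0.02 and 0.05. Scaling by all miRNA reads lowered the median of all miRNAs to -0.29 in wild type and -0.40 in mutant 1, and there it put miR-15b-5p (0.898) and miR-195-5p (0.971) below the control in wild type and miR-15a-5p (0.910) and miR-15b-3p (0.778) below it in mutant 1.

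MiR-15a-5p, the neighbour of miR-16-1 in DLEU2, had 385 RPM in the control, 537 in wild type, 456 in mutant 1 and 497 in mutant 2. The control was lowest, and the ratios of 1.40 (1.35 to 1.45), 1.18 (1.14 to 1.23) and 1.29 (1.25 to 1.34) all stayed under 1.5-fold. MiR-16-5p reads per miR-15a-5p read were 44.02 (42.8 to 45.3) in the control and 64.7 (63.2 to 66.3), 77.1 (75.2 to 79.0) and 83.7 (81.8 to 85.6) in the plasmid libraries.

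MiR-15b-5p, the neighbour of miR-16-2 in SMC4, had 863 RPM in the control, 1011 in wild type, 1348 in mutant 1 and 1059 in mutant 2. The mutant 1 library stood above the others, at 1.56-fold (1.53 to 1.60) over the control, against 1.17-fold (1.14 to 1.20) and 1.23-fold (1.20 to 1.26). Its passenger miR-15b-3p showed another order, with 148 RPM in the control, 225 in wild type, 150 in mutant 1 and 227 in mutant 2. Here the mutant 1 library lay with the control at 1.01-fold (0.951 to 1.08), and the wild-type and mutant 2 libraries lay 1.52-fold (1.44 to 1.62) and 1.53-fold (1.45 to 1.62) higher.

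The strands of miR-15b therefore stood in a different proportion in mutant 1. Reads of miR-15b-5p per read of miR-15b-3p were 5.83 (5.56 to 6.12) in the control, 4.48 (4.30 to 4.67) in wild type, 9.01 (8.61 to 9.43) in mutant 1 and 4.67 (4.50 to 4.84) in mutant 2. The miR-424 strands had their highest proportion in the same library, at 9.26 (7.43 to 11.7) reads of miR-424-5p per read of miR-424-3p. The other values for miR-424 were 3.18 (2.59 to 3.94) in the control, 5.20 (4.18 to 6.53) in wild type and 4.49 (3.77 to 5.38) in mutant 2.

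Strand proportions moved in both directions in mutant 1. Among miRNAs whose arms each averaged 50 reads or more, the proportion of the arms changed by more than 1.5-fold against the control in 18.9% of 122 pairs in wild type, 45.5% of 121 in mutant 1 and 15.7% of 127 in mutant 2, and between mutant 1 and wild type in 23.1% of 121. Against the control, the pairs past it in mutant 1 were 27 toward the 5p-strand and 28 toward the 3p-strand, with a median log2 difference of -0.06 over all 121. The miR-15b and miR-424 pairs were both past it in mutant 1, by 1.54-fold and 2.91-fold against the control and by 2.01-fold and 1.78-fold against wild type, and miR-424 was past it in wild type (1.64-fold). What part the change across that library had in the miR-15b and miR-424 values was not tested.

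MiR-424-5p, which belongs to the family through its seed, had 28.8 RPM in the control, 41.7 in wild type, 58.7 in mutant 1 and 46.0 in mutant 2. The control was lowest and mutant 1 highest, with ratios of 1.45 (1.27 to 1.66), 2.04 (1.81 to 2.31) and 1.60 (1.41 to 1.82). MiR-424-3p had 9.04, 8.01, 6.34 and 10.2 RPM in the same order of libraries. Its ratio in mutant 1 was 0.702 (0.528 to 0.930), and the intervals of the other 2 ratios held 1.

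MiR-195-5p had 21.1 RPM in the control and 26.7, 29.4 and 29.2 RPM in wild type, mutant 1 and mutant 2. Its ratios of 1.27 (1.08 to 1.49), 1.40 (1.20 to 1.63) and 1.39 (1.19 to 1.61) stayed under 1.5-fold, although with edgeR's TMM the ratio in mutant 1 was 1.52. MiR-503-5p, from the same host locus as miR-424, had 41, 66, 61 and 59 reads. Only the wild-type ratio of 1.76 (1.17 to 2.67) had an interval above 1. The ratio in mutant 1 was 1.42, and 1.54 with TMM and 1.51 with DESeq2's scaling. At this depth a change of the size seen for miR-195-5p could not be told from none.

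The libraries with plasmids were also compared with each other. Between mutant 1 and wild type, 1 of 10 members was past 1.5-fold, miR-15b-3p at 0.664 (0.627 to 0.703), beside 14.8% of 472 miRNAs. Between mutant 2 and wild type, 1 of 10 was past it, the plasmid-encoded miR-16-1-3p, beside 2.91% of 481. It had the highest ratio of these 481, which leave out the other sequences that plasmids encode.

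Summed over the seed, the family was higher in the plasmid libraries almost only through miR-16-5p. The 7 miRNAs with the seed AGCAGCA had 18252 RPM in the control, 36380 in wild type, 37032 in mutant 1 and 43199 in mutant 2. MiR-16-5p made up 92.8% (92.7 to 92.9) of these reads in the control and 95.5% (95.5 to 95.6), 94.9% (94.8 to 94.9) and 96.2% (96.1 to 96.2) in the plasmid libraries. MiR-15b-5p supplied 4.73%, 2.78%, 3.64% and 2.45%, and miR-15a-5p 2.11%, 1.48%, 1.23% and 1.15%.

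A list of 10 further miRNAs that share the seed or a locus with the members was also read: miR-15a-3p, miR-195-3p, miR-497-5p, miR-497-3p, miR-503-3p, miR-6838-5p, miR-542-3p, miR-542-5p, miR-450a-5p and miR-450b-5p. Of these, 3 passed the minimum, and 0 of the 3 were past 1.5-fold in any plasmid library against the control, beside 11.2%, 20.9% and 9.63% of all miRNAs compared. MiR-497-5p, which has the family seed and lies beside miR-195, had 10.5, 10.9, 12.0 and 12.0 RPM, miR-542-3p had 39.8, 37.2, 38.0 and 36.5 RPM, and miR-450b-5p had 28.2, 27.3, 26.7 and 24.2 RPM in the control, wild-type, mutant 1 and mutant 2 libraries. The last 2 lie on the X chromosome near miR-424 and miR-503. MiR-6838-5p, the other miRNA with the family seed, had at most 4 reads in a library.

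The untransfected miRNAs outside the family whose 3 log2 ratios to the control were nearest to those of miR-16-5p, by root mean square difference over the 3 libraries among 468 candidates, were miR-26a-1-3p (0.18), miR-590-5p (0.21) and miR-1226-3p (0.22). MiR-26a-1-3p stood at 2.29-fold, 2.49-fold and 2.31-fold, miR-590-5p at 2.58-fold, 2.27-fold and 2.52-fold, and miR-1226-3p at 1.90-fold, 2.53-fold and 2.10-fold in wild type, mutant 1 and mutant 2. MiR-26a-1-3p had 44 reads in the control and 92 to 115 in the plasmid libraries, so it reached the minimum only through the latter, which favours a ratio above 1. MiR-590-5p rested on 86 to 245 reads and miR-1226-3p on 504 to 1336. All these ratios share the control library.

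The 5p-end sets the seed, and for the main strand it was nearly fixed. MiR-16-5p started at the annotated base in 99.63% (99.60 to 99.65) of reads in the control, 99.63% (99.61 to 99.64) in wild type, 99.72% (99.70 to 99.73) in mutant 1 and 99.68% (99.66 to 99.69) in mutant 2. The range over libraries was below 0.1 percentage points, and among 165 untransfected miRNAs with at least 1000 reads in every library the median share was 98.3% in each. Where miR-16-5p did start elsewhere, it was mostly 1 base downstream, in 0.326%, 0.320%, 0.239% and 0.267% of reads. Starts 1 base upstream, where the hairpins have different bases (u at MIR16-1 and c at MIR16-2), made up 0.0251%, 0.0303%, 0.0288% and 0.0308%.

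MiR-16-2-3p was the exception among the members. It started 1 base upstream of the annotated 5p-end in 84.1% (82.2 to 85.7), 84.2% (82.2 to 86.0), 87.6% (85.8 to 89.1) and 87.0% (85.3 to 88.6) of reads, and at the annotated base in only 14.1%, 13.9%, 10.2% and 10.6%. Its most frequent isoform also ended 1 base early, so that the molecule was still 22 nt long but shifted by 1 base, with the seed CCAAUAU in place of CAAUAUU. The miR-16-1-3p strand of the other locus kept its annotated start in 79.3% (61.6 to 90.2) of 29 reads, 91.4% (87.7 to 94.1) of 303, 90.8% (87.5 to 93.2) of 400 and 94.9% (92.8 to 96.4) of 606. For the remaining 5p-strands and 3p-strands the annotated start held at least 93.9% of the reads in every library.

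The 3p-ends were less uniform. The most frequent isoform over the 4 libraries is shown here, from the RefSeq hairpin, for the members where it was not the annotated sequence, again with the seed in capitals.

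hsa-miR-15a-5p: uAGCAGCAcauaaugguuugu
hsa-miR-195-5p: uAGCAGCAcagaaauauuggca
hsa-miR-424-5p: cAGCAGCAauucauguuuuga
hsa-miR-503-5p: uAGCAGCGggaacaguucugc
hsa-miR-16-1-3p: cCAGUAUUaacugugcugcugaa
hsa-miR-16-2-3p: aCCAAUAUuacugugcugcuuu
hsa-miR-15b-3p: cGAAUCAUuauuugcugcucu
hsa-miR-424-3p: cAAAACGUgaggcgcugcuaua

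Over the 4 libraries together, the most frequent form of miR-15a-5p, miR-424-5p and miR-15b-3p was 1 base shorter than annotated, whereas miR-195-5p, miR-16-1-3p and miR-424-3p were mostly 1 base longer. In all of the last 3 the next base of the hairpin is an A, so an encoded base and an A added after cleavage cannot be told apart.

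MiR-16-5p ended at the annotated base in 91.5% (91.4 to 91.7) of reads in the control, 93.5% (93.4 to 93.6) in wild type, 92.1% (92.0 to 92.2) in mutant 1 and 93.6% (93.6 to 93.7) in mutant 2. The control was lowest, by at most 2.07 percentage points. Of the other reads, most were 1 base shorter (5.34%, 4.20%, 5.12% and 4.18%) or 1 base longer (2.77%, 2.00%, 2.45% and 1.93%). MiR-15b-5p likewise kept its annotated 3p-end in 86.8%, 87.3%, 90.7% and 88.4% of reads.

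MiR-15a-5p differed from these. The form 1 base shorter made up 59.1% (57.8 to 60.4) of its reads in the control, 54.4% (53.2 to 55.6) in wild type, 45.1% (43.9 to 46.3) in mutant 1 and 47.9% (46.7 to 49.0) in mutant 2. The annotated end held 38.2%, 43.0%, 49.7% and 48.5%, and was the more frequent of the 2 in mutant 1, while in mutant 2 their intervals overlapped. MiR-15b-3p had its form 1 base shorter in 57.8% (55.6 to 59.9) of reads in the control, 67.8% (66.0 to 69.5) in wild type, 57.8% (55.7 to 59.9) in mutant 1 and 63.6% (62.0 to 65.2) in mutant 2. For this strand the control and the mutant 1 library were alike and the other 2 stood higher.

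Such moves were set beside those of all untransfected miRNAs and miR-16-5p with at least 1000 reads in both libraries, of which 5 were members (miR-15a-5p, miR-15b-5p, miR-15b-3p, miR-16-5p and miR-16-2-3p). The share of the most frequent 3p-end moved by over 5 percentage points against the control for 1 of 5 members in wild type (miR-15b-3p), beside 6.55% of 168 miRNAs, for 1 of 5 in mutant 1 (miR-15a-5p), beside 24.4% of 168, and for 2 of 5 in mutant 2 (miR-15a-5p and miR-15b-3p), beside 8.19% of 171. Between mutant 1 and wild type it moved for the same 2 of 5, beside 21.4% of 168. Reads were on average longer at the 3p-end than in the control for 57.7% of miRNAs in wild type, 87.5% in mutant 1 and 78.4% in mutant 2, with a median difference of 0.055 nt in mutant 1, where miR-15a-5p was longer by 0.19 nt. The part of this library-wide difference in the values for miR-15a-5p was not tested.

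MiR-16-1-3p carried its extra base in 58.6% (40.7 to 74.5) of reads in the control, 79.5% (74.6 to 83.7) in wild type, 73.0% (68.4 to 77.1) in mutant 1 and 75.1% (71.5 to 78.4) in mutant 2. With 29 reads in the control, its interval overlapped those of the mutant 1 and mutant 2 libraries and lay just below that of the wild-type library. MiR-195-5p carried its extra base in 61.0%, 64.8%, 64.9% and 63.1% of reads, with overlapping intervals. MiR-424-5p was 1 base short in 52.5% (47.5 to 57.4), 59.4% (55.1 to 63.6), 46.4% (43.0 to 49.8) and 49.4% (45.7 to 53.1) of reads, so wild type was apart from mutant 1 and mutant 2. Its annotated 3p-end held 38.2%, 33.7%, 49.4% and 43.8%, and in mutant 1 and mutant 2 the intervals of the 2 forms overlapped. MiR-503-5p, the member with the fewest reads after miR-16-1-3p in the control, had no dominant 3p-end. The form 2 bases short held 31.7%, 27.3%, 36.1% and 37.3% of its reads and the form 3 bases short 39.0%, 34.8%, 24.6% and 22.03% in the control, wild type, mutant 1 and mutant 2, with overlapping intervals in each library.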

How the data were processed

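Per the study's methods, the authors used cutadapt for adapters and a length range of 18 to 26 nt, filtered by quality, mapped to hg38 with Bowtie2 and counted unambiguous reads at miRBase version 22 loci. The deposited values are raw counts per isoform in 4 libraries, not normalized. How reads of miR-16-5p, which match both its loci, were assigned is not given in the sources used here. A second deposited file lists the cloned sequences.

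Deposited end offsets were read as positive for a 3p-end upstream of the annotated one, since read lengths then fell within 18 to 26 nt for all 10981 isoforms with a RefSeq mature length, and for 84.5% with the opposite sign. Signs of 3p-ends were turned so that positive is longer.

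Counts were summed per miRNA. Ratios have exact conditional (Clopper-Pearson) intervals, shares Wilson intervals and levels exact Poisson intervals. For the share of miRNAs past 1.5-fold, counts below 3 were set to 3, and no ratio printed here rests on a count of 0. The text names all 10 members, the 10 further miRNAs and the 3 nearest in pattern. Members and lists were chosen with earlier results of these data known. Scaling alternatives used edgeR 4.0.16 and DESeq2 1.42.0 (R 4.3.3), and the rest Python 3.11.15, pandas 2.3.3, numpy 2.4.6, scipy 1.17.1 and matplotlib 3.10.9. The ratio procedure was tested on simulated data. Host genes are from GENCODE release 44 (canonical transcripts) and sequences from RefSeq.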

Additional observations from a re-analysis of the deposited data

How the results depend on the processing

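With all miRNA reads as the scale, miR-16-5p was 1.57-fold, 1.59-fold and 2.35-fold above the control in the wild-type, mutant 1 and mutant 2 libraries. With edgeR's TMM it was 1.91-fold, 2.25-fold and 2.40-fold, and with DESeq2's median of ratios 1.90-fold, 2.21-fold and 2.38-fold, and with reads at the annotated 5p-start it was 2.09-fold in the mutant 1 library. The members past 1.5-fold in the wild-type library fell from 4 to 2 with all miRNA reads and to 2 with a minimum of 200 reads. Over all 7 alternatives and 3 libraries the count ranged from 2 to 6. The 6 were in mutant 1 with TMM, beside 20.9% of 473 miRNAs, where miR-195-5p (1.52) and miR-503-5p (1.54) came past 1.5-fold, and mutant 2 had 5 at the annotated 5p-start, beside 10.5% of 430, with miR-16-2-3p (0.654) lower. With all miRNA reads it was 2, 4 and 3 of 10 beside 16.7%, 38.7% and 9.63% of the miRNAs compared, and 1 of the 4 in mutant 1 was lower (miR-424-3p). Subtraction of the control gave 789, 690 and 650 miR-16-5p reads per miR-16-1-3p read, or 577, 509 and 633 when it was scaled by all miRNA reads, which turned the order of wild type and mutant 2, and gave an annotated 3p-end in 95.4%, 92.6% and 95.04% of the remaining miR-16-5p reads.

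The study scaled by miR-16-5p reads, which hold plasmid reads in every library but the control. MiR-16-5p was itself 2.05-fold, 2.07-fold and 2.45-fold above the control, so this scaling puts any smaller ratio to the control below 1 by arithmetic. Of the ratios above 1.5, 6 fell below 1 in this way: miR-15b-3p 0.743 and miR-503-5p 0.858 in the wild-type library, miR-15b-5p 0.753 and miR-424-5p 0.985 in the mutant 1 library, and miR-15b-3p 0.626 and miR-424-5p 0.652 in the mutant 2 library. MiR-16-1-3p stayed above 1, at 5.57, 6.35 and 7.53. Between the plasmid libraries, which all hold the plasmid, miR-16-5p was 1.011-fold higher in mutant 1 and 1.20-fold higher in mutant 2 than in wild type. Of the 162 single-member values under all alternatives, 104 stayed within the interval of the reported value and the others moved out of it. The ratio crossed 1 in 24 of the 162, of which 19 were with miR-16-5p reads (these 6 among them), 4 with all miRNA reads and 1 with TMM. No paired analysis was possible because each condition has 1 library. Intervals omit the spread between transfections, which has no measure here, and depth limits miR-503-5p, miR-424-3p and miR-16-1-3p in the control.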

Other observations

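Passenger strands outside the member list were rare. MiR-15a-5p had 396 reads (231 to 745) per read of miR-15a-3p in the control, 274 (184 to 428) in wild type, 183 (131 to 263) in mutant 1 and 278 (191 to 423) in mutant 2, on 13, 24, 35 and 27 reads of miR-15a-3p, and these intervals all overlapped. MiR-195-5p had 14.8, 13.1, 24.3 and 17.0 reads per read of miR-195-3p, on 17 to 26 reads of the latter, also with overlapping intervals. MiR-542-5p, which had 28, 44, 51 and 37 reads, and miR-450a-5p, which had 12, 10, 18 and 26 reads, were compared no further.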
